A study of Mus musculus with 23 samples.

Results

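The genes described here are 44 genes of S phase: those that license and fire replication origins, copy DNA, supply nucleotides and package new chromatin, with the E2F factors and E cyclins that sit upstream of them. They were chosen by symbol from a list, and kept where the mean over the 23 libraries of the study reached 10 normalized reads. All 44 symbols were among the 16259 genes of the deposited table, and 42 had the required mean, of 11939 genes in all. The other two, Orc1 (an origin recognition subunit, mean 6.56) and Fen1 (the flap endonuclease of Okazaki fragments, mean 8.09), are counted as not tested. A normalized read is a read count divided by 1 factor per library.

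RNA was taken from whole proximal small intestine of mice labelled male, either wild type (WT, 12 libraries) or Ddit4-/- (here KO, 11 libraries); Ddit4 encodes REDD1, a stress-induced inhibitor of mTORC1. The doxorubicin groups received 20 mg/kg of doxorubicin, a topoisomerase II poison, by the intraperitoneal route. They were either prefasted, meaning fasted for 24 h and then given food again (8 libraries at 2, 6, 12 and 24 h), or fed ad libitum (7 libraries at the same times). The untreated groups were fasted for 24 h and refed for 2 or 6 h (4 libraries), fasted for 24 h (2 libraries) or fed ad libitum (2 libraries). Each combination of feeding, drug and time had 1 KO and 1 WT library, except ad libitum feeding at 2 h of doxorubicin, which had WT alone. The labels give neither strain nor age, and nothing says how many animals stand behind a library. Tests therefore used the KO and WT library of a condition as its 2 replicates with genotype as a term, and a p-value speaks only of the spread among these libraries, which may be partly technical.

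In a dividing cell, origins are licensed in G1 when ORC, Cdc6 and Cdt1 load the Mcm2 to Mcm7 helicase, and they fire in S phase when Cdc45 and the GINS complex join that helicase. Activator E2F factors, released from RB once cyclin D and cyclin E kinases have phosphorylated it, drive transcription of most genes of this machinery. In the small intestine these genes belong chiefly to the transit-amplifying cells of the crypt, so that a change in whole tissue can come from fewer such cells or from less RNA per cell, which cannot be told apart here.

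The E2F site itself is shown because a part of these genes share it. The motif was not used to choose the genes, but the list was one of S phase and E2F genes. Its share among them is therefore not independent of how they were chosen. RefSeq promoters of build GRCm38.p6, each 250 bases before to 50 bases after a gene's start, were matched by symbol for 37 of the 44 genes. The motif searched was TTTGGCGC, TTTCGCGC, TTTCCCGC or TTTGCCGC on both strands, where overlapping matches count separately. It lay in a promoter of 14 of the 37 genes (37.8%), and in 2.61% of the 27025 genes with a promoter in the same table. The 14 were Mcm3, Mcm5, Mcm6, Mcm7, Cdc6, Cdt1, Orc1, Rfc3, Pold1, Pola1, Dnmt1, Uhrf1, Hells and E2f2. For each role the gene with the highest mean that carried the motif is printed, and Mcm5 was added after its values were seen; capitals mark the motif on either strand, and none of the 5 nucleotide supply genes carried it, nor did Cdc45, the origin firing gene with a promoter in the table. In the order printed, the windows are chr1:128359656-128359955 (minus strand), chr8:75109259-75109558 (plus), chr5:151651159-151651458 (minus), chr7:44548766-44549065 (minus), chr9:20952574-20952873 (minus) and chr4:136172024-136172323 (plus). Dnmt1 and E2f2 have other listed starts, whose promoters lack the motif.
Mcm6: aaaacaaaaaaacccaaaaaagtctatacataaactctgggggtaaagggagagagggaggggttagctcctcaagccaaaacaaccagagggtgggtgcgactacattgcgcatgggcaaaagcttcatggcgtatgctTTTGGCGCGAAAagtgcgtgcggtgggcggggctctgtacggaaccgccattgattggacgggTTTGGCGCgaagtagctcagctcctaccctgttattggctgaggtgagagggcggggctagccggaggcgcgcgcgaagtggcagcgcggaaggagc
Mcm5: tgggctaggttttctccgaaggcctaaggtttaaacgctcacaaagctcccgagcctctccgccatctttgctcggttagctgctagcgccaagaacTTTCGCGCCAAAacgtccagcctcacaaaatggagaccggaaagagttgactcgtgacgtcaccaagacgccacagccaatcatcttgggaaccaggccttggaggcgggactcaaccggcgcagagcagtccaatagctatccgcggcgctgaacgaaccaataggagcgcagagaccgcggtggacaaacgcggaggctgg
Rfc3: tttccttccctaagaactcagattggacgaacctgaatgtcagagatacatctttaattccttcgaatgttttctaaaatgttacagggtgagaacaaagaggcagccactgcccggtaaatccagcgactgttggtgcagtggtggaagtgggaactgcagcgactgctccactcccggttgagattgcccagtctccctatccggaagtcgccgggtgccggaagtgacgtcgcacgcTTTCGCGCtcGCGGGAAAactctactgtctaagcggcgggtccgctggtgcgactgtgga
Pold1: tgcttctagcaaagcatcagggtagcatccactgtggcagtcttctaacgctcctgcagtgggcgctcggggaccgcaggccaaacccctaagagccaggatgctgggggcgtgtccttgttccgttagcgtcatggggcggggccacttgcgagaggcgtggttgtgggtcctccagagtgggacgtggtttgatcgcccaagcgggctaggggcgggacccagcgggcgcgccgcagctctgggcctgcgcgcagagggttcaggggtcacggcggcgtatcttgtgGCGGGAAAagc
Dnmt1: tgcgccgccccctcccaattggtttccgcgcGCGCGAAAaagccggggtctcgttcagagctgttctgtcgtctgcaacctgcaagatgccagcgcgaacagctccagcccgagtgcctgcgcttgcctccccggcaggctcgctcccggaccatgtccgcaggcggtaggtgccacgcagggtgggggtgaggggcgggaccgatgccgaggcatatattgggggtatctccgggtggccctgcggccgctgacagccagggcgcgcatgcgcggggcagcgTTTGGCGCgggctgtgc
E2f2: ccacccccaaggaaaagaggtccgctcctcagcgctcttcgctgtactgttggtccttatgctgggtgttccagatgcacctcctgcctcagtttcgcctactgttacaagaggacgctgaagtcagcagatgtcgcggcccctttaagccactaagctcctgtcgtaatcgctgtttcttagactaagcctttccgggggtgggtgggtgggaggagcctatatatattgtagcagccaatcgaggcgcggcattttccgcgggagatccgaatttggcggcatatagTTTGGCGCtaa
Mcm6 and Mcm5 each hold an overlapping pair of matches, which begins at position -110 from the start in Mcm6 and at -153 in Mcm5 and reads the same on opposite strands. Mcm6 has another match at -47. The single matches of E2f2 and Pold1 lie 39 bases after the start. A match is a description of these letters and not of binding.

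Recovered reads per library ran between 11418115 and 23428519. Ddit4, the targeted gene, had 0 to 11.3 normalized reads in KO libraries, against 66.9 to 414 in WT libraries. Some libraries stood apart. In 3 untreated KO libraries (ad libitum, fasted and refed 2 h) Y-linked genes had 0 to 5 reads, although the label is male, against 1088 to 2030 elsewhere. Pancreatic acinar transcripts, from a neighbouring organ, had 74965 reads in the KO fasted library and 113068 in the WT refed 6 h untreated library, against 118 to 2517 in the others. B cell markers had 365 to 932 reads in 4 libraries (KO fasted, WT ad libitum untreated, WT ad libitum doxorubicin 6 h, WT prefasted doxorubicin 24 h), against 16 to 101. The 4 WT prefasted doxorubicin libraries are titled untreated but carry doxorubicin as their drug label. Their p53 targets stood at a mean log2 relative level of -0.03 to 0.46, against -1.19 to -0.08 in the 8 untreated libraries. Over all prefasted doxorubicin libraries the range was -0.18 to 0.51, which overlaps the untreated one. Cdkn1a, a p53 target, had 8133, 4848, 9450 and 7198 normalized reads in the 4 libraries at 2, 6, 12 and 24 h. Untreated libraries had 4737 to 6519, so these values do not settle which label is right. The number of members past the threshold is also given without these libraries wherever that changes it. The members' median is given without them where it moves by over 1.5 times, and not for every fit in which the number changes.

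Levels differed widely among the genes. Per kb of merged exon, Pcna, the sliding clamp, was highest with a mean of 458 normalized reads per kb, followed by Gmnn (geminin, the inhibitor of Cdt1) with 265 and Cdt1 (the loading factor) with 127, while Pole (the catalytic subunit of polymerase epsilon) was lowest of the 44 with 1.48. The libraries were non-directional, so reads from overlapping genes cannot be told apart: 84.2% of the exon bases of Fen1, 67.3% of those of Gins2, 52.5% of those of Chaf1a and 17.4% of those of Ccne2 also belonged to another gene, while E2f2, Ccne1, Mcm5, Mcm6, Dnmt1 and Dut shared none.

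The heat map of all members shows 1 library above the rest. The WT refed 2 h untreated library held the highest value of 28 of the 42 genes, and no other library held more than 3. The lowest values were spread more evenly, with 8 in the KO refed 6 h untreated library, 5 in the WT prefasted doxorubicin 6 h library and 5 in the KO prefasted doxorubicin 24 h library. As a mean log2 level relative to each gene's mean, the members ranged between -0.64 and 0.57 in the 15 doxorubicin libraries (median -0.28) and between -0.71 and 1.47 in the 8 untreated libraries (median 0.48). The ends of the untreated range were the WT refed 2 h and the KO refed 6 h library.

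**Figure D1:**
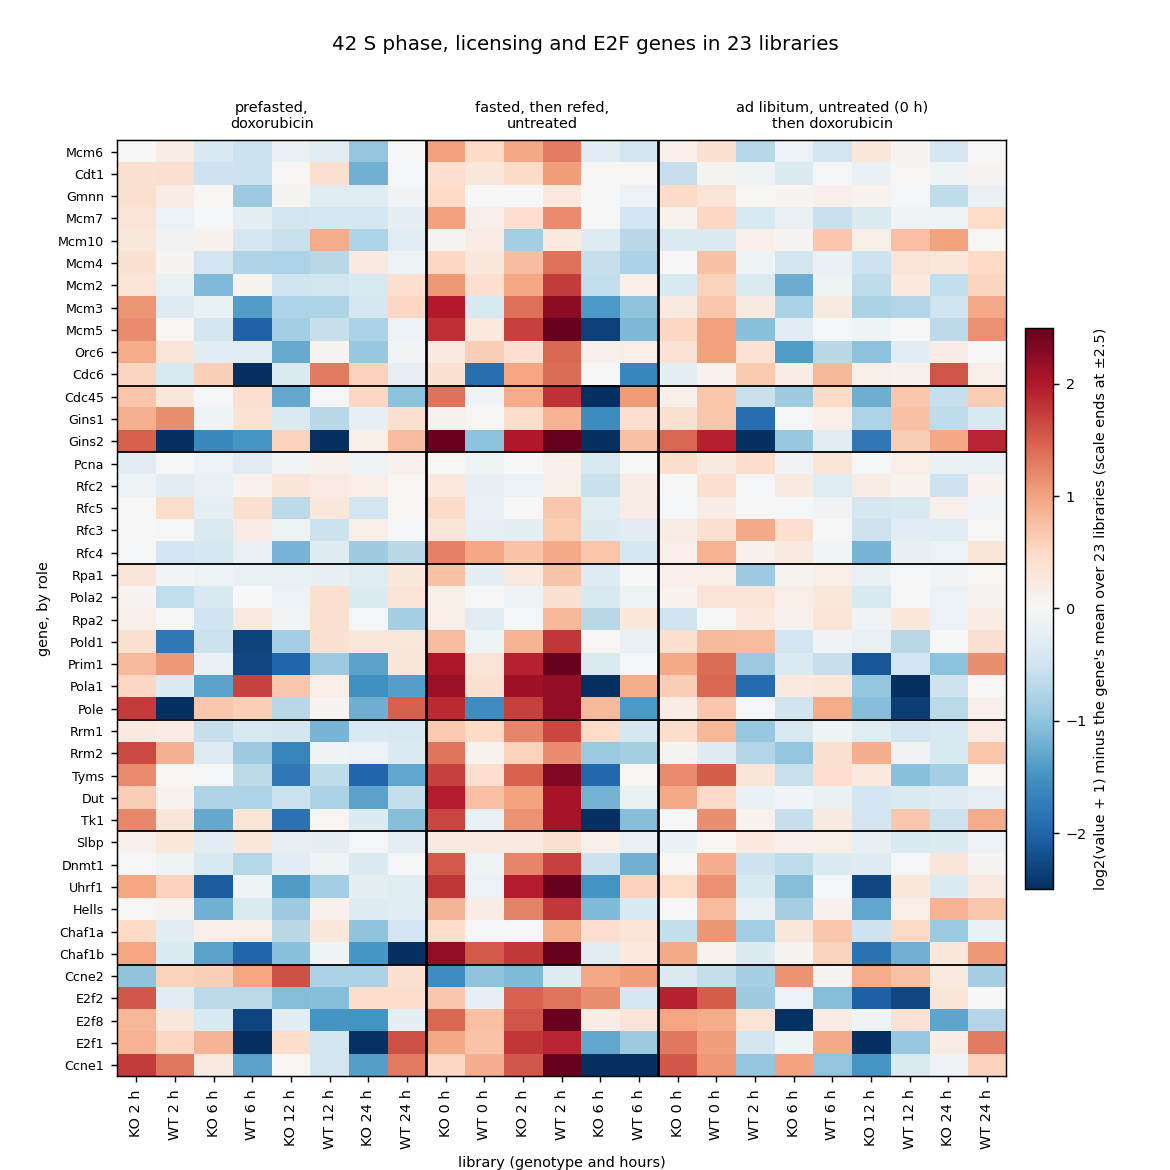
Level of the 42 genes (rows, by role) in the 23 libraries (columns, KO left of WT), as log2(value + 1) minus the gene's mean, in 3 blocks of feeding and drug with hours low to high. The WT refed 2 h untreated column is the reddest, with the highest value of 28 genes, and the refed 6 h columns beside it are mostly blue.

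The genes with the highest mean of each role did not share 1 pattern. Mcm6, a subunit of the helicase, had 374 and 421 normalized reads after doxorubicin in prefasted mice at 2 h, against 731 and 908 in untreated refed mice at 2 h (KO then WT in each). Pcna stayed within 828 to 1479 normalized reads over all 23 libraries. Slbp, which binds the stem-loop of histone mRNA, stayed within 488 to 836. Rpa1, the large subunit of the single-strand binding protein, lay between 143 and 448, and Rrm1, the large subunit of ribonucleotide reductase, between 82.6 and 594. Cdc45, the helicase cofactor, lay between 1.23 and 122. Ccne2, the cyclin E2 gene, lay between 73.1 and 649, with its highest value in a doxorubicin library (KO, prefasted, 12 h).

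Doxorubicin at 6, 12 and 24 h in ad libitum-fed mice was set against the 2 untreated ad libitum libraries. No untreated ad libitum library was taken at those times. An effect of the drug therefore cannot be told apart here from one of elapsed time or time of day. All 3 comparisons share those 2 untreated libraries, so they are not independent of each other. E2f2, an activator E2F, fell at 6 h and at 12 h. No other member passed the test at any of the times, although most were lower, and Ccne2, Mcm10 (a helicase-associated firing factor) and Cdc6 were higher in both doxorubicin libraries than in both untreated ones at 6 and 12 h without passing it.

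E2f2 had 449 and 340 normalized reads in the untreated KO and WT libraries of ad libitum-fed mice. After doxorubicin it had 63.7 at 2 h (WT alone), 107 and 55.0 at 6 h, 28.05 and 23.7 at 12 h, and 147 and 118 at 24 h, KO before WT. All 7 doxorubicin values lie below both untreated values, with the lowest pair at 12 h. The log2 change was -2.33 ± 0.43 (SE) at 6 h, a fall to 0.199 of the untreated level (limma, adjusted p = 0.0155), and -3.87 ± 0.43 at 12 h, to 0.0683 of it (adjusted p = 0.00015). At 24 h it was -1.56 ± 0.43 (limma, adjusted p = 0.0589), past the threshold with edgeR and with DESeq2. The 12 h call held without each of the 4 libraries in turn, with adjusted p between 0.00203 and 0.00759 (limma), and without those lacking Y-linked reads. The 6 h call was lost without any 1 of its 4 libraries, with adjusted p between 0.0776 and 0.137 (limma), and without the B cell-rich or Y-lacking libraries, while its log2 change stayed between -2.54 and -2.05 in those fits.

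At 6 h, 1 of the 42 members passed, lower, of 160 genes in all (1.34% of those tested, limma); 0.436% of all genes passed in the lower direction. The median change of the members was -0.64, with 34 of 42 negative, whereas over all genes tested the median lay between -0.05 and 0.03 in every comparison of this study. In 22 members both doxorubicin libraries lay below both untreated ones, a pattern shown by 25.1% of all genes, and in 5 members both lay above, against 25.3% of all genes. Orc6, an origin recognition subunit, had 23.6 and 39.3 normalized reads at 6 h, against 82.4 and 131 untreated, a log2 change of -1.74 ± 0.44 (limma, adjusted p = 0.0661) that passed with DESeq2 and with quantile normalization.

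At 12 h, E2f2 alone of the 42 passed with limma, of 1074 genes in all (9%), and 4.21% of all genes passed in the lower direction; edgeR called 1 member and DESeq2 called 5 (E2f2, Rrm1, Orc6, Prim1 and Chaf1b). The median change of the members was -0.66, and 36 of 42 were negative. In 27 members both doxorubicin libraries lay below both untreated ones (29.7% of all genes), and in 3, Ccne2, Cdc6 and Mcm10, both lay above (29.1% of all genes). By role, the median log2 change was -2.23 for the 5 E2F and cyclin E genes and -1.06 for the 7 polymerase and RPA genes. It was -1.03 for the 5 nucleotide genes, -0.81 for the 6 chromatin genes and -0.68 for the 3 firing genes. For the 5 clamp and loader genes it was -0.49, and for the 11 licensing genes -0.38. Prim1, the catalytic subunit of primase, had 4.67 and 17.1 normalized reads at 12 h, against 47.4 and 65.4 untreated (log2 -2.48 ± 0.88, limma, adjusted p = 0.0876).

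At 24 h, 0 of the 42 passed with limma, where 371 genes did (3.11%). Of the members 6 had an unadjusted p under 0.05, and edgeR and DESeq2 called 1 each, E2f2. The members' median was -0.41, with 33 of 42 negative; without the KO doxorubicin library it was -0.15, without the WT untreated library -0.19 and without the WT doxorubicin library -0.62. Both doxorubicin libraries lay below both untreated ones in 18 members (27.9% of all genes) and above in 2, Cdc6 and Mcm10 (29.6% of all genes). Tyms, which makes thymidylate, had 33.1 and 61.7 normalized reads at 24 h, against 139 and 175 untreated, with a log2 change of -1.76 ± 0.70 (limma, adjusted p = 0.175). The change between 24 h and 6 h was tested directly: with limma 0 of 42 members and 0% of genes passed in ad libitum-fed mice, and likewise 0 members and 0% of genes in prefasted mice. Members with an unadjusted p under 0.05 numbered 3 in ad libitum-fed and 2 in prefasted mice, and edgeR and DESeq2 called 0.

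**Figure D2:**
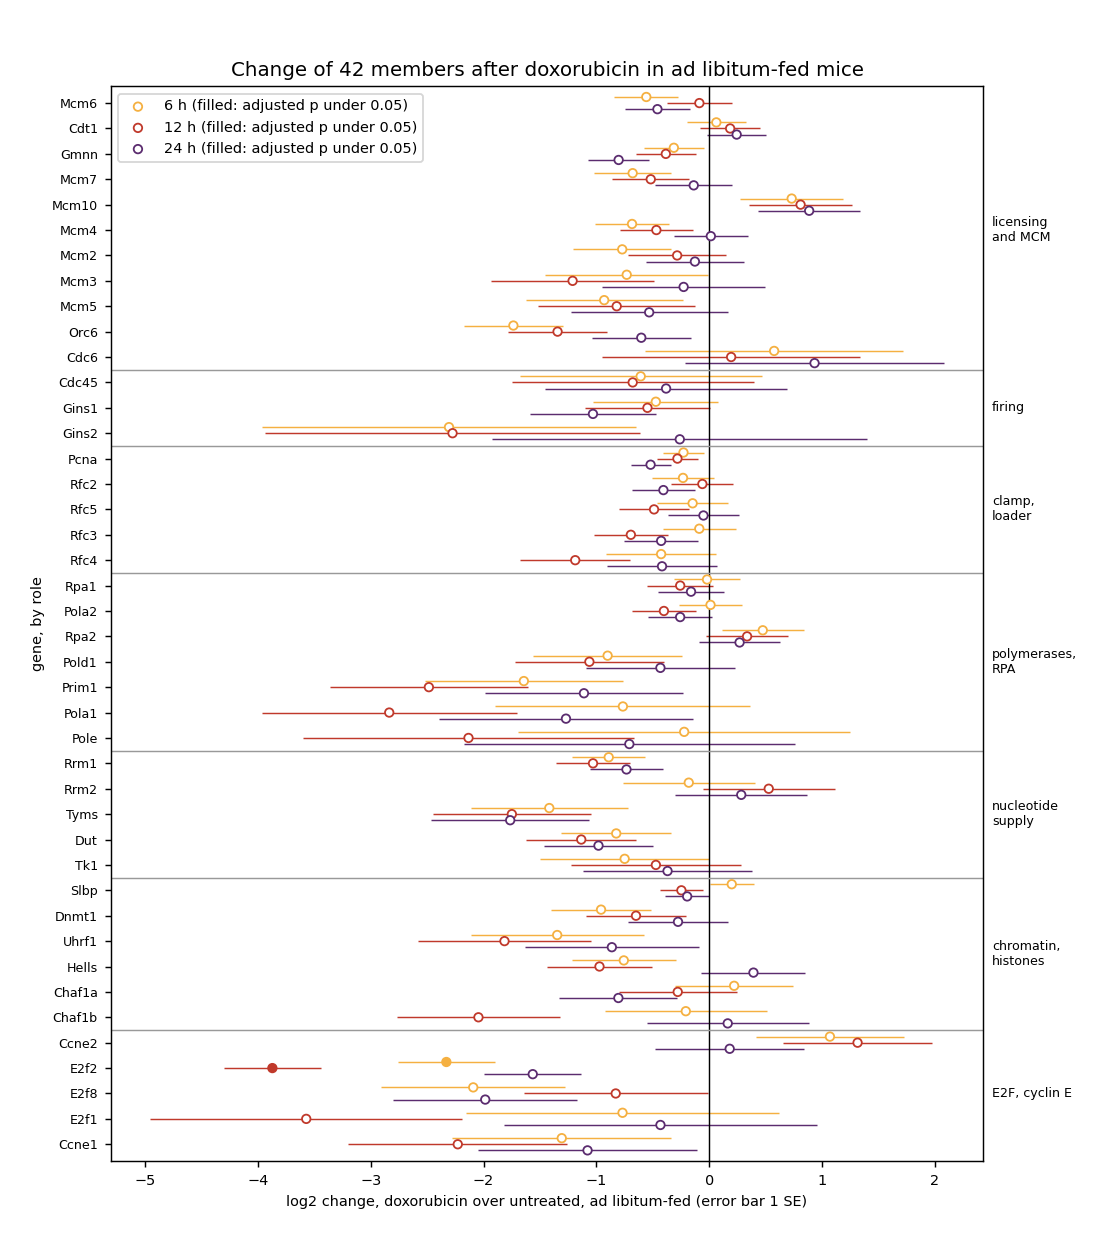
Log2 change of the 42 genes (rows, by role) in doxorubicin over untreated libraries of ad libitum-fed mice at 6, 12 and 24 h; bars are 1 SE and filled points passed at an adjusted p under 0.05. The filled points are E2f2 at 6 h and 12 h, and most open points lie left of 0, with Ccne2 at 1.07 and 1.32 and Mcm10 at 0.73 and 0.81 right of it.

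At 6 and 12 h of doxorubicin in ad libitum-fed mice, the fitted changes of Ccne2 and Ccne1, the cyclin E1 gene, had opposite signs. In the WT libraries at 2 and 24 h both genes were lower than in the untreated WT library. Ccne2 had 120 normalized reads at each of these times, against 142, and Ccne1 had 5.71 and 18.4, against 26.8. Ccne2 had 468 and 225 normalized reads at 6 h of doxorubicin and 410 and 360 at 12 h, against 167 and 142 in untreated ad libitum-fed mice. Its log2 change was 1.07 ± 0.66 at 6 h and 1.32 ± 0.66 at 12 h, with adjusted p of 0.491 and 0.231 (limma). Ccne1 had 3.74 and 9.20 normalized reads at 12 h, against 37.3 and 26.8 untreated, with a log2 change of -2.23 ± 0.97 (limma, adjusted p = 0.165). Neither passed at any time after doxorubicin.

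Among the members, E2f1 and E2f8 also had negative fitted changes at 6, 12 and 24 h and did not pass. E2f1, an activator, had 0 and 6.57 normalized reads at 12 h, against 34.996 and 28.8 untreated (log2 -3.57 ± 1.38, limma, adjusted p = 0.118). At 24 h it had 15.5 and 34.6, so the WT value lay above the WT untreated one. E2f8, an atypical repressor, had 12.0 and 18.4 at 24 h, against 63.2 and 60.5 untreated (-1.99 ± 0.81, limma, adjusted p = 0.19). Mcm10 had 199 and 303 at 6 h, 210 and 321 at 12 h and 383 and 196 at 24 h, against 147 and 149 untreated. Its log2 change of 0.73 to 0.89 ± 0.45 did not pass at any of these times (limma, adjusted p between 0.29 and 0.496).

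At 2 h of doxorubicin in ad libitum-fed mice only a WT library was analysed, so no test was made. Against the WT untreated library 36 of 42 members were lower, with a median log2 difference of -0.80, against -0.01 over all genes. E2f2 had 63.7 normalized reads there, against 340, and Rrm1 had 97.02, against 332.

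Other genes of the pathway were taken from lists. Over all genes, 9% passed at 12 h, and 4.21% passed in the lower direction. Of 38 other replication genes, 2 passed at 12 h, both lower. Cdca7, a chromatin factor expressed with S phase, had a log2 change of -1.66 ± 0.46 (limma, adjusted p = 0.0329). It is also on the list of crypt stem markers. Pold2, a subunit of polymerase delta, had a change of -1.83 ± 0.49 (limma, adjusted p = 0.0287). Of 22 E2F and RB pathway regulators, Cdk4 (-1.55 ± 0.31) and Ccna2, cyclin A2 (-2.03 ± 0.58), fell and Cdkn1a, the inhibitor p21, rose (0.78 ± 0.19; adjusted p of 0.00783, 0.0391 and 0.0173, limma). Their medians at 12 h were -0.56 and -0.09. None of either list passed at 6 h or 24 h with limma, where 8 and 3 and then 4 and 3 had an unadjusted p under 0.05. Of 25 G2/M genes, 7 passed at 12 h, all lower, with a list median of -1.94, and Mki67 had 63.6 and 98.6 normalized reads, against 235 and 400 untreated.

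Markers of other crypt cells moved with these comparisons. Paneth markers, of which 9 passed the filter, stood at a mean log2 relative level of -0.38 and -1.41 at 12 h of doxorubicin, against 1.31 and 1.57 in untreated ad libitum-fed mice, and crypt stem markers at -0.61 and -0.53 against 0.63 and 1.03. Over the 11 crypt stem markers the median log2 change at 12 h was -0.85, with 9 negative and 2 positive, and 4 were called lower. Olfm4, a stem cell marker, had 22.4 and 65.7 normalized reads at 12 h, against 1788 and 2565 untreated. Clock genes of the Per phase stood at -0.61 to 1.79 in the 15 doxorubicin libraries and at -2.72 to 0.01 in the 8 untreated libraries. Smooth muscle markers, 7 genes of the muscle layer, had a median log2 change of -2.42 at 12 h, with 5 called lower, and of -2.23 at 24 h, with 2 called lower. Enterocyte markers, 12 genes of the villus, had a median of 0.61 at 12 h, with 2 called higher (Apoa1 and Slc5a1). Among the clock genes 7 of 9 were called higher at 6 h and at 12 h. Over all genes 1.34%, 9% and 3.11% were called at 6, 12 and 24 h. The part of any of these lists in the results was not tested.

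**Figure D3:**
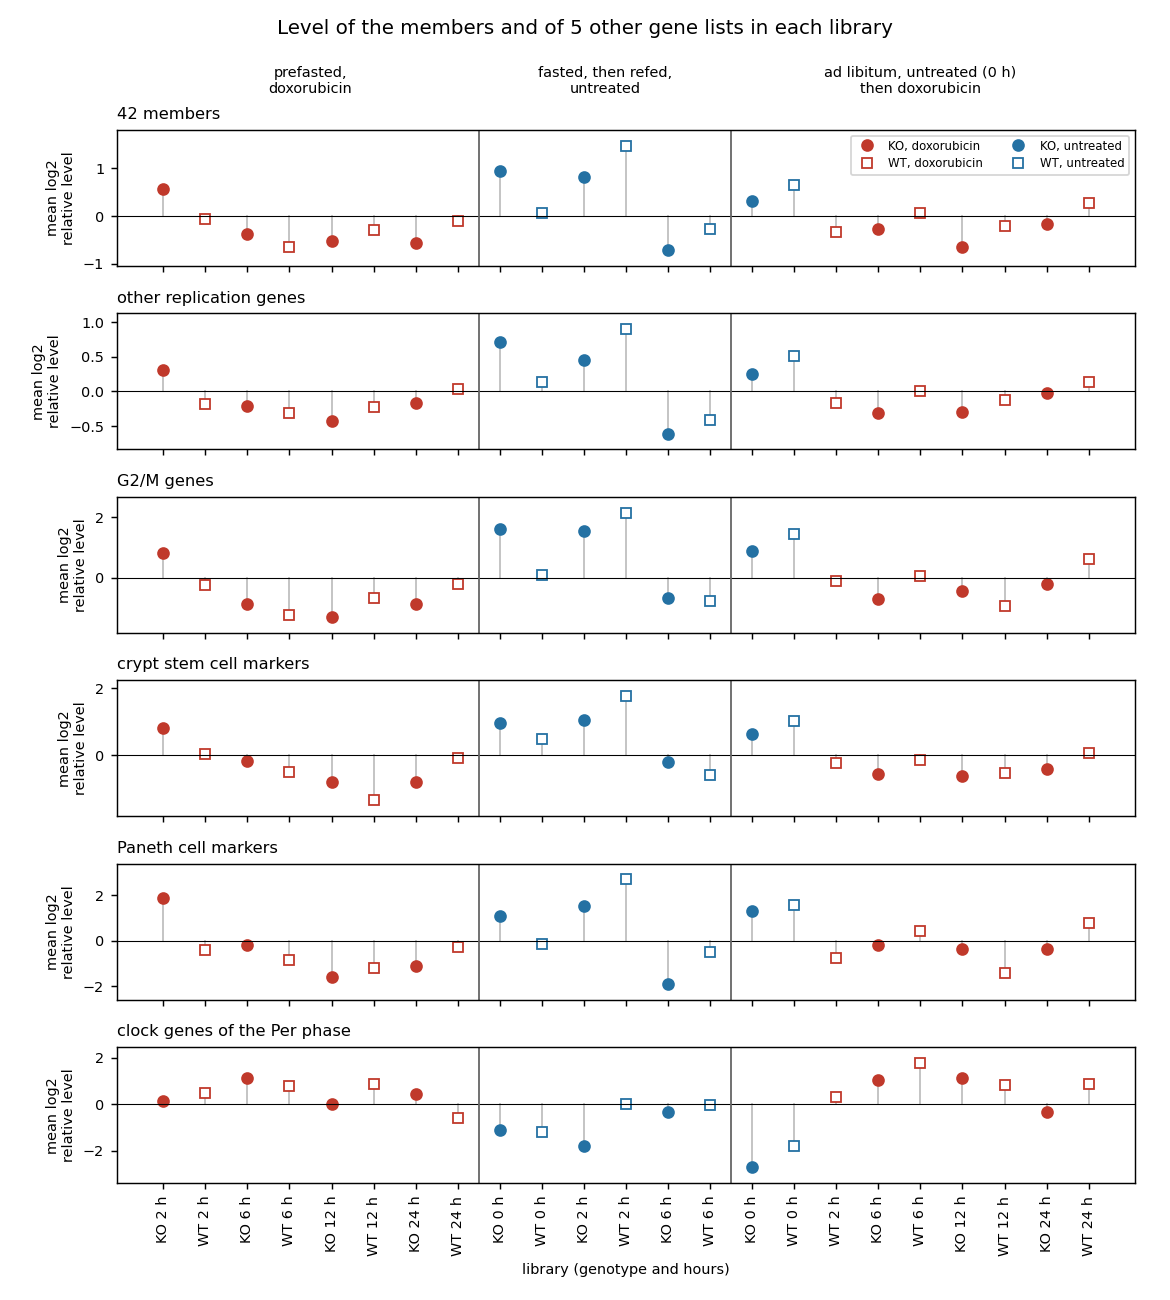
Mean log2 level, relative to each gene's mean, of the 42 members and of 5 other lists in each library (KO filled circles, WT open squares; doxorubicin red, untreated blue). The members, G2/M genes, crypt stem markers and Paneth markers are each highest in the WT refed 2 h untreated library, at 1.47, 2.16, 1.77 and 2.70.

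In prefasted mice doxorubicin could be set against untreated mice refed for the same 2 or 6 h. At 2 h most members were lower after the drug, but none passed. Of the 42, 0 passed with limma, where 4 genes did (0.0335%), and 11 had an unadjusted p under 0.05; edgeR called 0 and DESeq2 called 3 (Dnmt1, Mcm6 and Rrm1). The median change was -0.87 with 37 of 42 negative, and both doxorubicin libraries lay below both untreated ones in 24 members (23.8% of all genes). That median was -0.46 without the libraries of conflicting titles and -1.11 without the Y-lacking ones, and it was -0.42 without the WT doxorubicin library alone and -0.60 without the WT untreated one. Gins2, among the 24 members, has a mean of 11.7 over all libraries and was kept partly through its 25.6 and 54.6 in the untreated ones. Rrm1 had 220 and 216 normalized reads after doxorubicin, against 436 and 594 untreated, and its log2 change was -1.22 ± 0.32 (limma, adjusted p = 0.169). By genotype the median over members was -0.26 in KO and -1.41 in WT, a difference that was not tested at this time alone, and the WT untreated library is the one that stood highest. Paneth markers stood at 1.87 and -0.39 after doxorubicin, against 1.52 and 2.70 untreated, and their part was not tested.

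At 6 h in prefasted mice, 0 of 42 members passed with limma, as did 0% of all genes, and 4 members had an unadjusted p under 0.05; edgeR and DESeq2 called 0. Of the members 21 were positive and 21 negative, and their median stayed between -0.15 and 0.03 in every limma fit without a library or without 1 of these sets. Ccne1 had 14.3 and 4.18 normalized reads after doxorubicin, while both untreated libraries were at 0; with 3 reads per library as the floor it was at least 2.12-fold higher. E2f2 had 73.9 and 73.8 normalized reads after doxorubicin, against 265 and 88.6 untreated, with a log2 change of -1.05 ± 0.43 (limma, adjusted p = 0.346). Without the 2 libraries rich in pancreatic transcripts, only the KO library was left on the untreated side, and Cdc45 was higher after doxorubicin. Cdc45 had 33.4 and 46.0 normalized reads after doxorubicin, against 1.23 in that KO library and 71.9 in the WT untreated library left out. Its direction in that fit therefore rests on the KO untreated library alone.

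**Figure D4:**
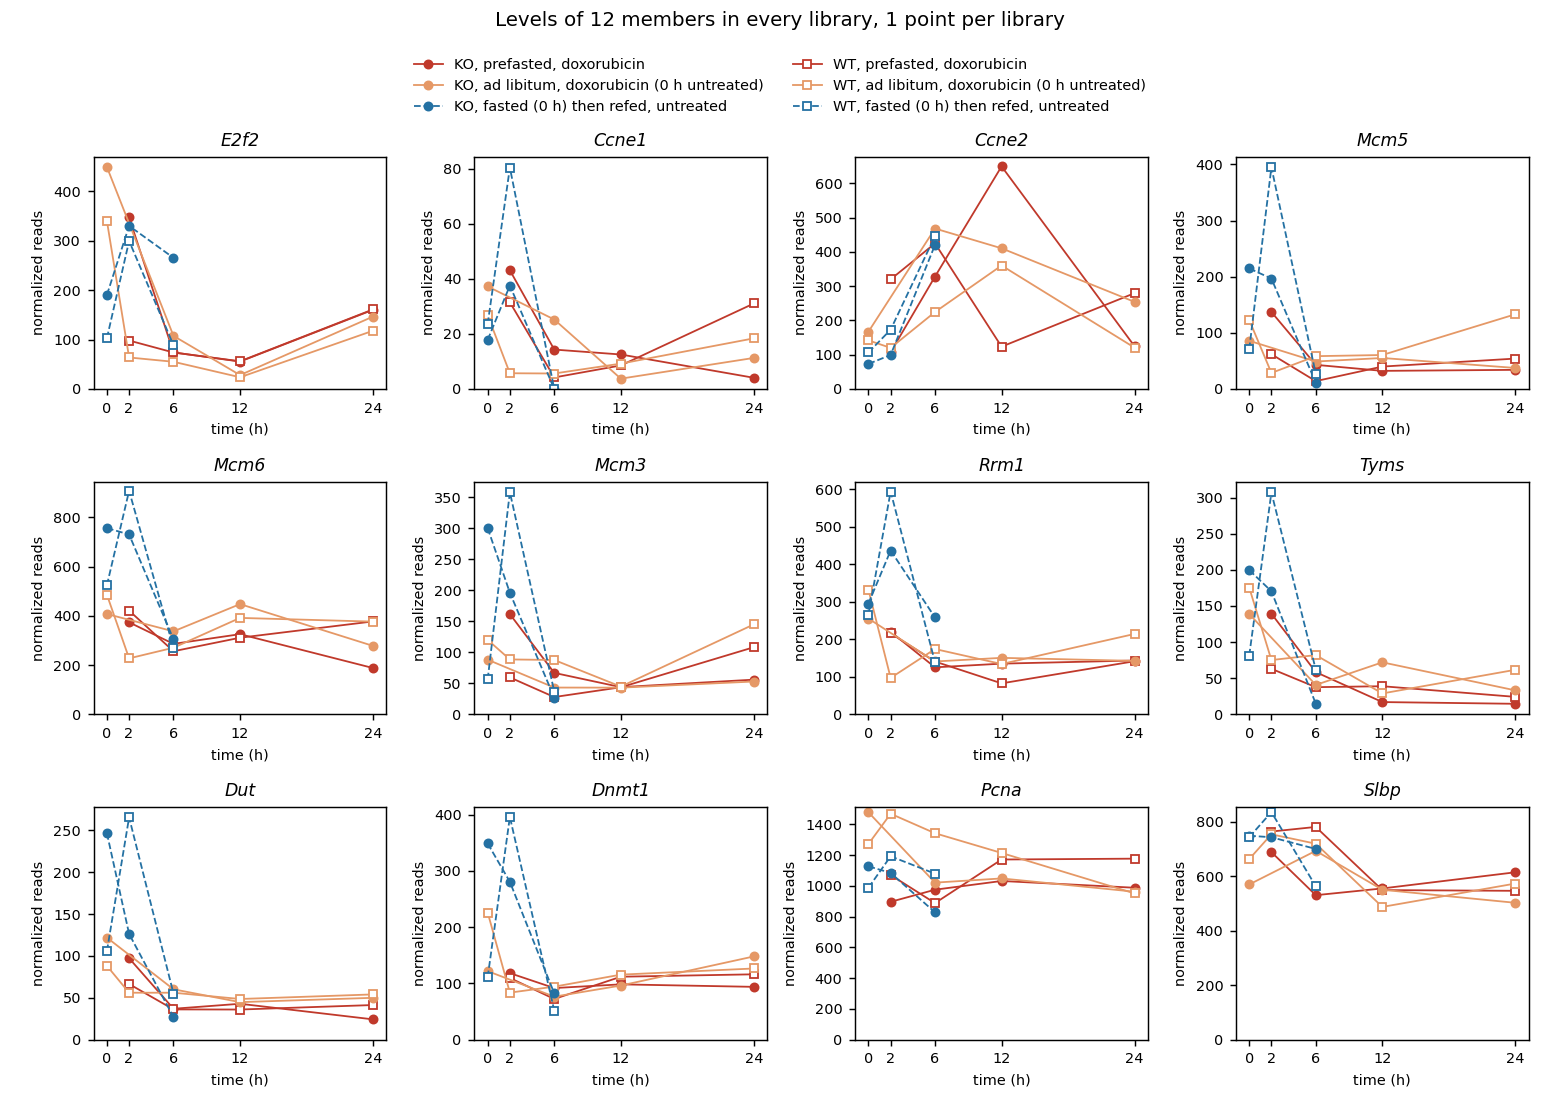
Normalized reads of 12 members against time in hours, 1 point per library, with KO filled circles, WT open squares, doxorubicin solid lines and untreated dashed lines. E2f2 is lowest at 12 h of doxorubicin in ad libitum-fed mice (28.05 and 23.7), and Mcm5, Ccne1 and Dut peak in the WT refed 2 h untreated library.

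Feeding before the drug was tested in 7 pairs of prefasted and ad libitum-fed doxorubicin libraries matched on genotype and time. No member passed, and no other gene did: 0 of 42 members and 0% of genes passed with limma, 1 member had an unadjusted p under 0.05, and edgeR and DESeq2 called 0 members. The median change of the members was -0.12, with 29 of 42 negative; it was -0.13 without the libraries of conflicting titles, -0.04 without the B cell-rich ones, and -0.23 to -0.06 without single pairs. The member with an unadjusted p under 0.05 was Mcm10, which averaged 183 normalized reads in prefasted and 260 in ad libitum-fed mice and was higher in 2 of 7 pairs (log2 -0.56 ± 0.22, limma, adjusted p = 0.754). E2f2 averaged 96.97 in prefasted and 77.5 in ad libitum-fed mice and was higher in 6 of 7 pairs (0.46 ± 0.22, limma, adjusted p = 0.754). The 95% interval of the difference lay within a 2-fold change either way for 25 of the 42 members, and for Pcna it ran between -0.37 and 0.12 and for Mcm6 between -0.46 and 0.24 on the log2 scale. For the other 17 a 2-fold difference lies inside the interval.

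Taken time by time, prefasting gave 0 members of 42 past the threshold with limma at 6 h (0.00838% of genes), at 12 h (0% of genes) and at 24 h (0% of genes), and the difference between its effects at 24 h and 6 h gave 0 members (0.00838% of genes). Members with an unadjusted p under 0.05 numbered 2, 2, 4 and 1 in those tests, and edgeR and DESeq2 called 0 members in each. The members' median was -0.31 at 6 h (34 of 42 negative), -0.06 at 12 h (25 negative) and -0.29 at 24 h (28 negative). Without single libraries it ran between -0.38 and -0.13, -0.17 and 0.08, and -0.50 and -0.08. Both prefasted libraries lay below both ad libitum ones in 14, 6 and 12 members (22%, 14.3% and 16.2% of all genes). Both lay above in 1, 6 and 3 (20.3%, 14.8% and 15.1% of all genes). Chaf1b, a subunit of the chromatin assembly factor, had 6.48 and 2.30 normalized reads in prefasted mice at 24 h, against 24.0 and 42.2 in ad libitum-fed mice (log2 -2.72 ± 0.72, limma, adjusted p = 1). It had 7.16 and 4.18 in prefasted mice at 6 h, against 20.4 and 29.2, and 8.95 and 18.03 at 12 h, against 4.67 and 7.89, so that its direction at 12 h was the opposite one. Without the KO prefasted doxorubicin 6 h library, only the WT one, which has a conflicting title, stood for prefasted mice at 6 h. Cdc6 was at 0 there and had 42.9 normalized reads in the KO library left out. It had 31.7 and 50.5 in ad libitum-fed mice at 6 h, and 42.1 and 24.2 in prefasted mice at 24 h. The lower level of Cdc6 in prefasted mice at 6 h in those fits therefore rests on that WT library alone.

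Fasting and refeeding were also compared without the drug. After 24 h of fasting 0 of 42 members passed against ad libitum feeding with limma, where 41 genes did (0.343%); 3 members had an unadjusted p under 0.05, edgeR called 0 and DESeq2 called 1, E2f2. The median over members was 0.63 in KO and -0.40 in WT. E2f2 had 190 and 103 normalized reads in fasted mice, against 449 and 340 in ad libitum-fed mice, both lower (log2 -1.48 ± 0.43, limma, adjusted p = 0.242). The KO fasted library is the one rich in pancreatic and B cell transcripts. Over both genotypes the members' median was 0.04, and it was -0.46 without the pancreas-rich libraries, -0.42 without the B cell-rich ones and -0.40 without the Y-lacking ones.

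Refeeding for 2 h gave 0 of 42 members past the threshold against fasting with limma, where 30 genes passed (0.251%); 3 members had an unadjusted p under 0.05, and edgeR and DESeq2 called 0. In 12 members both refed libraries lay above both fasted ones (23.1% of all genes). The median change was 0.59 with 38 of 42 positive, but by genotype it was -0.14 in KO and 1.18 in WT, where 41 of 42 members were higher. It was 1.18 without the Y-lacking libraries, 0.89 without the pancreas-rich ones and 0.90 without the B cell-rich ones, but -0.02 without the WT fasted library. E2f2 had 330 and 300 normalized reads at 2 h of refeeding, against 190 and 103 fasted (1.16 ± 0.43, limma, adjusted p = 0.398). Other lists differed as well. The median log2 change was 6.08 for 8 fat tissue markers, -6.16 for 9 pancreatic acinar markers and 1.58 for 9 Paneth markers. It was 0.70 for 11 crypt stem markers and 0.88 for 25 G2/M genes. No gene of these lists passed with limma, and the part of these lists was not tested.

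After 6 h of refeeding 6 members differed from fasting with limma, 5 lower and 1 higher, of 838 genes in all (7.02%; 3.46% of all genes lower and 3.56% higher). The lower ones were 2 helicase subunits (Mcm5 and Mcm6), Dut (which removes dUTP), Dnmt1 (the maintenance DNA methyltransferase) and Ccne1, and the higher one was Ccne2. The median change was -0.82, with 39 of 42 negative, and in 26 members both refed libraries lay below both fasted ones (25% of all genes). By genotype the median was -1.08 in KO and -0.32 in WT, and without the KO fasted library it was -0.31. edgeR called 6 members and DESeq2 called 12. By role, the median log2 change was -2.03 for the 5 nucleotide genes, -1.72 for the 3 firing genes and -1.27 for the 6 chromatin genes. It was -0.83 for the 5 E2F and cyclin E genes and -0.81 for the 11 licensing genes. For the 7 polymerase and RPA genes it was -0.43, and for the 5 clamp and loader genes -0.21.

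On mm10 (GENCODE M21) Mcm5 lies at chr8:75109569-75128439 (plus strand), Mcm6 at chr1:128331590-128359664 (minus), Dut at chr2:125247190-125258608 (plus), Dnmt1 at chr9:20907209-20959888 (minus), Ccne1 at chr7:38097984-38107534 (minus), Ccne2 at chr4:11191351-11204779 (plus) and E2f2 at chr4:136172394-136196057 (plus). Mcm5 had 11.1 and 26.7 normalized reads at 6 h of refeeding, against 215 and 70.8 fasted, a log2 change of -2.77 ± 0.70 (limma, adjusted p = 0.0282). Mcm6 had 305 and 271, against 757 and 524 (-1.13 ± 0.29, limma, adjusted p = 0.0285). Dut had 27.0 and 55.2, against 247 and 106 (-2.03 ± 0.49, limma, adjusted p = 0.024). In all 3 the refed pair lies below the fasted pair, and the KO fasted library is the higher of its pair.

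Dnmt1 had 82.3 and 51.8 normalized reads, against 349 and 111 fasted (-1.58 ± 0.44, limma, adjusted p = 0.0428). Ccne1 was at 0 in both refed libraries, against 17.8 and 23.6 fasted; with 3 reads per library as the floor it was at least 4.76-fold lower, and its fitted change of -4.43 ± 0.97 (limma, adjusted p = 0.0166) depends on the pseudocount, with an adjusted p of 0.0527 at a pseudocount of 5. Ccne2 had 420 and 446, against 73.1 and 107 (2.28 ± 0.66, limma, adjusted p = 0.048), and Ints8, which shares exon bases with it, changed by 0.26 ± 0.24 (limma, adjusted p = 0.527). The members' median is -0.82 also with Ccne1 at its bound.

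These calls rested on few libraries. Without the KO fasted library 0 of the 42 members passed, and the log2 changes became -1.81 for Mcm5, -0.80 for Mcm6, -1.35 for Dut, -0.70 for Dnmt1, -4.59 for Ccne1 and 1.97 for Ccne2. None passed without the Y-lacking libraries, without the pancreas-rich libraries or without the B cell-rich ones either, where the median was -0.31, -0.24 and -0.32, and 1, Ccne1, passed without the KO refed 6 h library. Paneth markers stood at -1.90 and -0.51 at 6 h of refeeding, against 1.09 and -0.13 fasted, and crypt stem markers at -0.20 and -0.57, against 0.95 and 0.49; the part of either was not tested. With all libraries, 3.46% of all genes passed lower and 3.56% higher. Of 38 other replication genes 5 passed, all lower, among them Wdhd1 and Gins3. Wdhd1, a replisome scaffold, had a log2 change of -4.99 ± 0.73 (limma, adjusted p = 0.00487). Gins3, a GINS subunit, had a change of -3.67 ± 0.93 (limma, adjusted p = 0.0289). Of 22 E2F and RB pathway regulators, E2f3, an activator E2F (1.55 ± 0.38), and Rb1, the restraint on E2F (0.89 ± 0.24), were higher, and E2f5, a repressor E2F (-0.9996 ± 0.28), and Cdkn1b, the inhibitor p27 (-0.91 ± 0.20), were lower (adjusted p of 0.0249, 0.0383, 0.0431 and 0.0161, limma). These calls rest on the same libraries: over all genes tested 1 passed without the KO fasted library, 0 without the Y-lacking or the B cell-rich libraries, and 81 without the pancreas-rich ones (limma). In the comparisons of fasting, of 2 h of refeeding, of prefasting, of doxorubicin in prefasted mice and of genotype none of these 2 lists passed with limma.

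**Figure D5:**
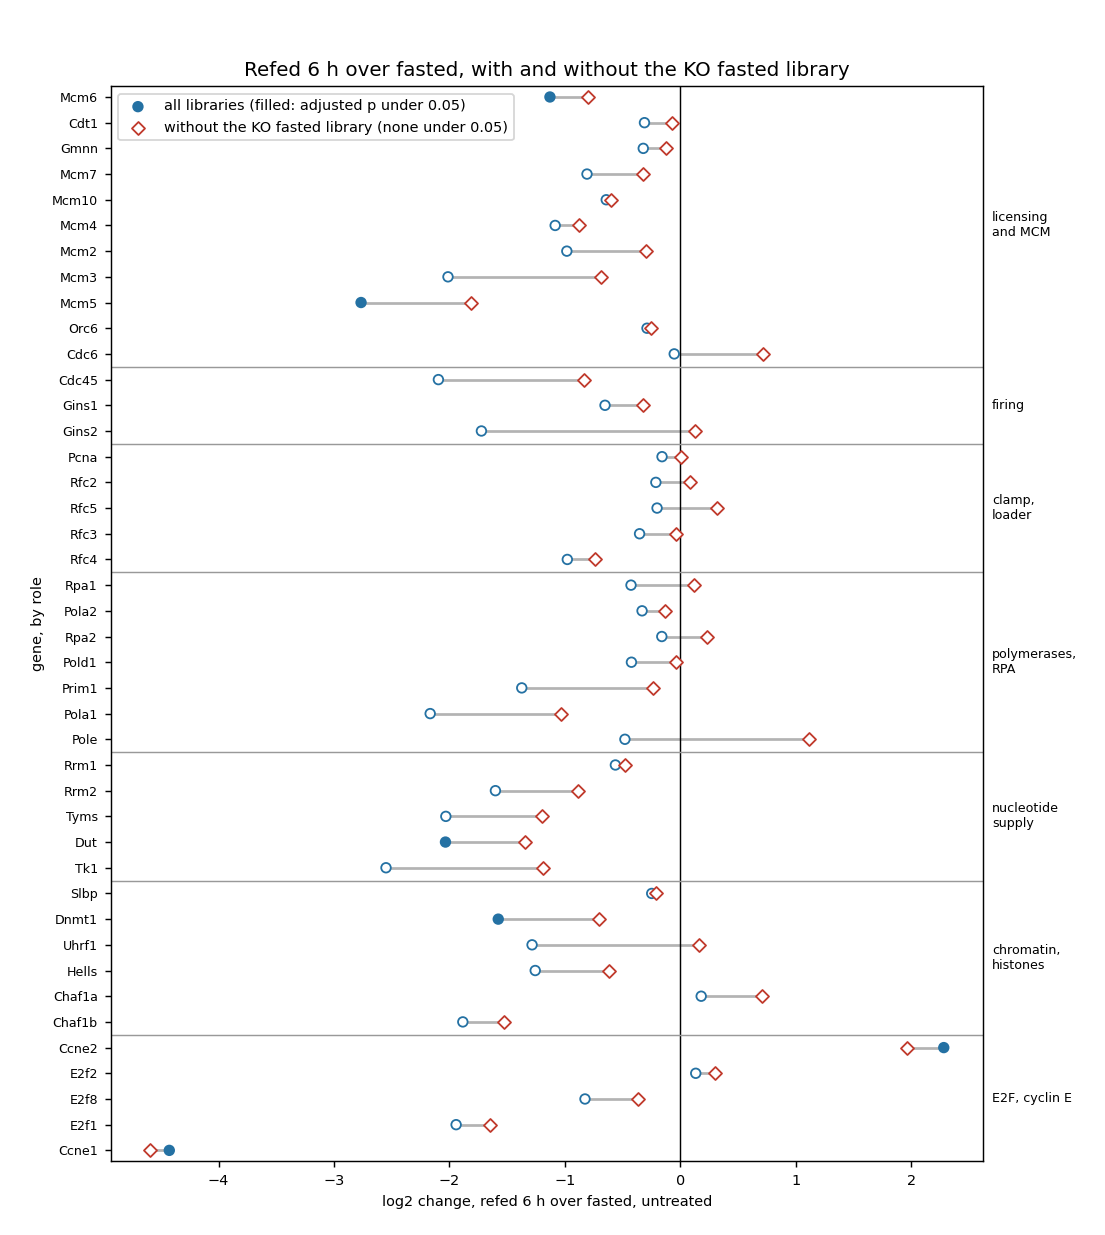
Log2 change of the 42 genes (rows, by role) in untreated mice refed for 6 h over fasted mice, with all libraries (blue circles, filled where the adjusted p is under 0.05) and without the KO fasted library (red diamonds). The 6 filled points are Mcm5, Mcm6, Dut, Dnmt1, Ccne1 and Ccne2, and most changes shrink toward 0 without that library.

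A comparison of 6 h with 2 h of refeeding was added after the values were seen, and it shares its libraries at 6 h with the comparison against fasting. With limma 13 members were lower at 6 h, of 1075 genes in all (9%; 5.4% of all genes lower), and none was higher. They were Mcm2, Mcm3, Mcm4, Mcm5 and Mcm6, the nucleotide genes Rrm1, Tyms, Tk1 (thymidine kinase) and Dut, the chromatin genes Dnmt1, Uhrf1 (its recruiter to new DNA) and Hells (a remodeller), and Ccne1. The median change was -1.55, with 41 of 42 negative, and in 34 members both libraries at 6 h lay below both at 2 h (27.6% of all genes). One of the 34, Gins2, has a mean of 11.7 over all libraries. It was kept partly through its 25.6 and 54.6 normalized reads at 2 h. Among the helicase subunits Mcm6 fell to 0.353 of its level at 2 h and Mcm5 to 0.0654 of it.

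Mcm5 had 11.1 and 26.7 normalized reads at 6 h, against 197 and 395 at 2 h (limma, adjusted p = 0.00566). Tk1 had 8.603 and 25.1, against 118 and 228 (log2 -3.39 ± 0.75, limma, adjusted p = 0.0157). Mcm3 had 27.0 and 36.8, against 196 and 358 (-3.03 ± 0.72, limma, adjusted p = 0.0206). Ccne1 was at 0, against 37.6 and 80.5, at least 13.6-fold lower. Ccne2 was higher, with 420 and 446 at 6 h against 99.1 and 173 at 2 h, and did not pass (1.72 ± 0.66, limma, adjusted p = 0.108).

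By genotype, the median over members was -1.11 in KO (38 of 42 lower) and -1.74 in WT (40 of 42 lower). Without the WT refed 2 h library, however, 0 members and 32 genes in all passed with limma, and the median was -1.32. Without the KO refed 2 h library 6 members passed, without the KO refed 6 h library 7, and without the Y-lacking libraries 4. Other lists were lower as well with all libraries, where 9% of all genes passed and 5.4% passed in the lower direction. Of 38 other replication genes 7 passed, all lower, among them Wdhd1 and Lig1, which joins Okazaki fragments. Their log2 changes were -4.79 ± 0.73 and -1.19 ± 0.31 (limma, adjusted p of 0.00357 and 0.0289). Of 22 E2F and RB pathway regulators 6 were lower, among them Ccnd1, cyclin D1 (-2.71 ± 0.58, adjusted p = 0.0135), and Rb1 was higher (1.06 ± 0.24, adjusted p = 0.0172, limma). Of 25 G2/M genes 12 were lower. Paneth markers stood at -1.90 and -0.51 at 6 h, against 1.52 and 2.70 at 2 h, and crypt stem markers at -0.20 and -0.57, against 1.07 and 1.77. Of 8 fat tissue markers 4 were called lower, with a list median of -5.37. The part of these lists was not tested.

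Loss of Ddit4 was tested over all 23 libraries. With limma 0 of 42 members passed, where 69 genes did (0.578%), 7 members had an unadjusted p under 0.05, and edgeR and DESeq2 called 0. The median change was -0.12, with 31 of 42 negative, and it was -0.14 to -0.20 without 1 of the sets of libraries that stood apart. Over the 11 conditions with both genotypes E2f2 averaged 196 normalized reads in KO and 129 in WT libraries and was higher in KO in 9 of 11 (log2 0.57 ± 0.18, limma, adjusted p = 0.195). Over the same conditions Mcm2 averaged 107 in KO and 154 in WT libraries and was higher in KO in 2 of 11 (-0.59 ± 0.19, limma, adjusted p = 0.184). For 32 of the 42 members the 95% interval lay within a 2-fold change either way. The knockout effect was also compared between doxorubicin and untreated libraries: 0 members and 0% of genes passed with limma, 0 members had an unadjusted p under 0.05, and edgeR and DESeq2 called 0.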

How the data were processed

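Libraries were poly-A selected, non-directional and read as pairs of 150 bases, per the labels. The authors deposited a normalized signal per gene and library, which is a read count divided by a library factor. Whole reads were recovered for 100% of values (tolerance 0.01). Trim Galore, STAR, DESeq2 and build mm10 are named in the submitters' processing notes; the gene counter, annotation and versions are not given in the sources used here. Depth was 11418115 to 23428519 reads per library, and low genes carry the larger counting error.

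Genes with a mean of at least 10 were tested on log2(value + 1), a scale that understates the change of low genes, with limma 3.58.1 in R 4.3.3 (trended eBayes). The model had a term for each of 12 conditions and one for genotype, fitted over all 23 libraries. Prefasting was tested over 7 matched pairs, and the knockout effect by drug as an interaction. P-values were adjusted by Benjamini-Hochberg over all genes at a threshold of 0.05. The fit was also run on simulated counts, with 1 spread for all genes and changes set only in genes with a mean of at least 50. That run does not speak for lower members or for libraries that stood apart. Alternatives were the count tests of edgeR 4.0.16 and of DESeq2 1.42.0 (on whole reads), quantile normalization, other filters and pseudocounts, and leaving libraries out; those without the B cell-rich libraries, and the comparison of 6 h with 2 h of refeeding, were added after the data were seen. No replicate numbers pair the samples. For each role the member with the highest mean was described, and up to 4 passing members per comparison; others named were chosen after their values were seen. The members and lists were chosen with earlier results of these data known. The 4 libraries whose title and drug label differ were kept by the drug label.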

Additional observations from a re-analysis of the deposited data

How the results depend on the processing

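The number of members past the threshold stayed within 1.5 times the reported one in 132 of 149 alternatives and in 113 of 124 fits without 1 library. For doxorubicin in ad libitum-fed mice it was 2 at 6 h with DESeq2 and with quantile normalization and 0 without the B cell-rich or Y-lacking libraries; it was 5 with DESeq2 and 2 at a mean of at least 50 at 12 h, and 1 with DESeq2, edgeR or quantile normalization at 24 h. Without single libraries it was 0 to 0 at 6 h. In prefasted mice doxorubicin gave 3 at 2 h with DESeq2 and 1 at 6 h without the pancreas-rich libraries. Prefasting at 6 h, and 24 h against 6 h in prefasted mice, gave 0 to 1 without single libraries, and fasting gave 1 with DESeq2. For 6 h of refeeding against fasting it was 12 with DESeq2, 0 without the B cell-rich, Y-lacking or pancreas-rich libraries and 0 to 6 without single libraries; against 2 h of refeeding it was 4 without the Y-lacking libraries and 0 to 14 without single libraries. Of 619 log2 changes recomputed, 538 kept their direction and side of the threshold and 11 reversed. The reversed values were -0.65 for Cdc45 (doxorubicin in prefasted mice at 6 h, without the KO untreated library; range without single libraries to 3.96); for Cdc6, -0.57 and -0.39 for the difference of the prefasting effect (range to 4.48) and -0.22 and -0.027 for 24 h against 6 h in prefasted mice (range to 4.84), each without the WT prefasted doxorubicin 6 h library and without the libraries of conflicting titles; and -0.043 for Gins2 (2 h of refeeding without the WT fasted library, range to 3.66). For the knockout effect by drug they were 0.15 and 0.64 for Pole, without the B cell-rich and without the pancreas-rich libraries, and -0.94 for Gins2 without conflicting titles and -0.23 without either refed 6 h untreated library (range to 2.08). The cause was not tested. The median over all genes moved by at most 0.03 with DESeq2 or edgeR and 0.08 with quantile normalization. Beside the 7 feeding pairs, which are matched on genotype and time, no samples were paired, because the labels give no replicate numbers. With 1 library per genotype and condition, the median SE of a member's log2 change between 2 conditions was 0.49, and the highest was 1.66, for Gins2.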
